A study of Mus musculus with 18 samples.

Results

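The 10 genes described here encode the inflammasome and pyroptosis machinery of the mouse macrophage. They were chosen by name, with earlier results of these data known, and they are 10 of the 22852 gene symbols counted in each library. The list holds 4 sensor genes (Nlrp3, Nlrc4, Aim2 and Nlrp1b), the adaptor gene Pycard, 3 inflammatory caspase genes (Casp1, Casp4 and Casp12), the pore-forming gasdermin gene Gsdmd and the membrane rupture gene Ninj1. All 10 passed the filter on low counts and were tested in every comparison. Casp12 reached 10 reads only in LPS-stimulated, LPS-primed and LPS-primed + carboplatin libraries. It therefore passed the filter only through groups where it was high.

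RNA-Seq was performed on bone marrow-derived macrophages (BMDMs) of female C57BL/6 mice, grown for 7 days in L929-conditioned medium, in 6 groups of 3 libraries. Unstimulated BMDMs received neither LPS, the endotoxin of Gram-negative bacteria, nor drug, LPS-stimulated BMDMs received only the low dose of LPS (10 ng/ml, 3 h), and LPS-primed BMDMs received the high dose (100 ng/ml, 24 h). LPS-tolerant BMDMs received the high dose for 24 h and then the low dose for 3 h. In the LPS-primed + carboplatin and LPS-tolerant + carboplatin groups, 25 µM carboplatin, a platinum drug that crosslinks DNA, was added 1 h before the high dose. The labels give the drug together with the high dose, and the study describes the priming as done in its presence. The LPS-stimulated and LPS-primed groups differ in both dose and time of LPS, so dose and time cannot be told apart between them. The LPS-tolerant group was exposed to LPS for longer than the LPS-primed group as well as a second time. Before the low dose its medium with the high dose was replaced by fresh medium. Effects of the low dose, the longer time and the change of medium therefore cannot be told apart between these groups.

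Inflammasomes are cytosolic complexes in which a sensor protein, once it detects a microbial product or cell damage, recruits the adaptor ASC (the product of Pycard) and activates caspase-1. Caspase-1 matures interleukin-1β and interleukin-18 and cleaves gasdermin D, whose pores lead to pyroptosis, a lytic death that ends with rupture of the plasma membrane by ninjurin-1. In macrophages a first exposure to LPS, called priming, raises the transcripts of part of this machinery ahead of the activating signal, and LPS that enters the cytosol is bound by caspase-11, which the mouse gene Casp4 encodes. The data here are transcript levels only and hold no measurement of caspase activity or cell death.

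The libraries held 6869667 to 14708099 read pairs on genes, the deepest being LPS-stimulated replicate 2. Values below are normalized read counts, scaled to the mean effective library size, and log2 fold changes ± SE with an adjusted p from edgeR's quasi-likelihood test over 11305 genes. A gene was called changed at an adjusted p below 0.05. All 10 macrophage markers examined were above 10 reads in some library and their summed level lay between 150000 and 311000 normalized read counts in every library. Of the 10 neutrophil markers, 6 never exceeded 10 reads and Ly6g and Mpo were at 0 throughout, while the summed level of the list was 442 to 756 in the unstimulated group and reached 4100 in the LPS-exposed groups. Of the 8 B cell markers, 6 never exceeded 10 reads and Igkc and Pax5 were at 0, but the list summed to 267 to 1560 in the unstimulated group and to at most 12.7 in the primed and tolerant groups. In the lists for dendritic cells, T and NK cells, mast cells, basophils and eosinophils, erythroid cells and stroma, every marker but Cd4 and Dcn stayed at 10 reads or fewer, and the summed levels were at most 13.1, 15.6, 13.1, 6.91 and 79.3. The part of these lists in the results was not tested. The replicate 2 libraries held the least Il1b and Cd14 of each group, and each count of changed genes was therefore also obtained without them. In bulk RNA, fewer cells that express a gene and less RNA per cell cannot be told apart.

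The 3 caspase genes lie next to each other on chromosome 9 (GRCm39), Casp1 (ENSMUSG00000025888) at chr9:5298508-5307290, Casp4 (ENSMUSG00000033538) at chr9:5308828-5336783 and Casp12 (ENSMUSG00000025887) at chr9:5345415-5373034, all on the plus strand. Of the 10 genes, 9 had entries in the RefSeq promoter table (GRCm38.p6), 12 in all, and the 250 bases before each start were searched on both strands for 3 motifs, the NF-kB site GGGNNTTTCC, the interferon response element GAAANNGAAA and the STAT site GAS, TTCNNNGAA. Of the 9 genes, 2 held a match, Casp4 to the NF-kB letters and Casp12 to the GAS letters, which read alike on both strands and were counted once. Over all 32851 promoter windows, 1.41% held the NF-kB letters, 2.98% the interferon response element and 7.02% the GAS letters. The sequences of Casp4 and Casp12 are shown because they held these matches and because these genes had the largest falls after the second LPS dose. The bases were matched exactly in GRCm39 and are given 5′ to 3′ up to the annotated start of the gene, with motif letters in capitals:
Casp4, chr9:5308599-5308827, plus strand: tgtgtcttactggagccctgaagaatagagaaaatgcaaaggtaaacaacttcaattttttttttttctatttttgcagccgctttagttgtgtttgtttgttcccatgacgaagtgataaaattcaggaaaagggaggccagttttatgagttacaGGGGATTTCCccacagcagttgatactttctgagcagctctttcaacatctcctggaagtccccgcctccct
Casp12, chr9:5345226-5345414, plus strand: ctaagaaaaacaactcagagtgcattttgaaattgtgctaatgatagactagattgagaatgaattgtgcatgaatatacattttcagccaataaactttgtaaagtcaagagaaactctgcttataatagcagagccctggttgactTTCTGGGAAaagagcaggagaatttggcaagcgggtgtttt
The capitals mark GGGGATTTCC, a match to the NF-kB letters at chr9:5308756-5308765, and TTCTGGGAA, a match to the GAS letters at chr9:5345374-5345382. Each window held a second match downstream of the annotated start, GGAAATGCCC at chr9:5308835-5308844 for Casp4 and TTCTGGGAA at chr9:5345440-5345448 for Casp12. These are matches of letters and not sites of binding.

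The first question was which of these genes respond to LPS. A single dose of LPS for 3 h changed 9 of the 10 genes against unstimulated BMDMs. Nlrp3, Nlrc4, Casp1, Casp4, Casp12, Gsdmd and Ninj1 rose, which is 7 genes where 24.3% of all genes tested rose, and Aim2 and Nlrp1b fell, where 26.9% of all genes fell. Their median log2 fold change was 0.75, against -0.09 over all genes. After 24 h of the high dose 5 of 10 had changed. Nlrp3, Nlrc4, Casp12 and Ninj1 were higher, beside 12.1% of all genes, and Nlrp1b was lower, beside 13.1%. Here the median of the 10 was 0.61, against -0.02 over all genes. At the limits used in the study for the LPS comparisons (an absolute log2 fold change over 2 with an adjusted p below 0.05), 4 genes remained in the stimulated BMDMs (Nlrp3, Casp4, Casp12 and Nlrp1b; 12.0% of all genes) and 1 in the primed BMDMs (Nlrp3; 7.47%). With the replicate number as a block, 6 genes were higher in the primed BMDMs, with Pycard and Casp4 added, beside 18.9% of all genes in that fit, and 3 were lower in the stimulated BMDMs, with Pycard added, beside 33.8% of all genes. Both comparisons use the same unstimulated libraries.

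The second question was how the same genes stood in LPS-tolerant BMDMs. Against LPS-primed BMDMs, 1 of the 10 genes, Nlrp3, was higher in tolerant BMDMs, while Casp1, Casp4, Casp12 and Nlrp1b were lower. Over all genes 3.60% were higher and 2.71% lower in this comparison, and 0.681% passed the study's limits, as did 1 of the 10 genes, Casp12. The block brought the lower genes to 5, with Pycard added, beside 8.32% of all genes. Against LPS-stimulated BMDMs, which received the same dose for the same time without priming, none of the 10 genes was higher and 6 were lower (Nlrp3, Casp1, Casp4, Casp12, Gsdmd and Ninj1). Among all genes 16.2% were higher and 18.3% lower. With the block 1 gene was higher, Pycard, beside 22.9% of all genes. At the study's limits Casp4 and Casp12, 2 genes, remained lower, beside 8.04% of all genes in either direction. The median log2 fold change of the 10 was -0.41 against LPS-primed and -0.58 against LPS-stimulated BMDMs, with -0.01 and 0.00 over all genes, and these comparisons share the LPS-tolerant libraries. Without the replicate 2 libraries, 2 genes were called between the tolerant and primed groups, Nlrp3 and Casp1, and the edgeR adjusted p of Casp12, Casp4 and Nlrp1b became 0.0781, 0.17 and 0.056 with log2 fold changes of -4.43, -1.07 and -1.10. The share of all genes called in that fit is not given here.

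**Figure D1:**
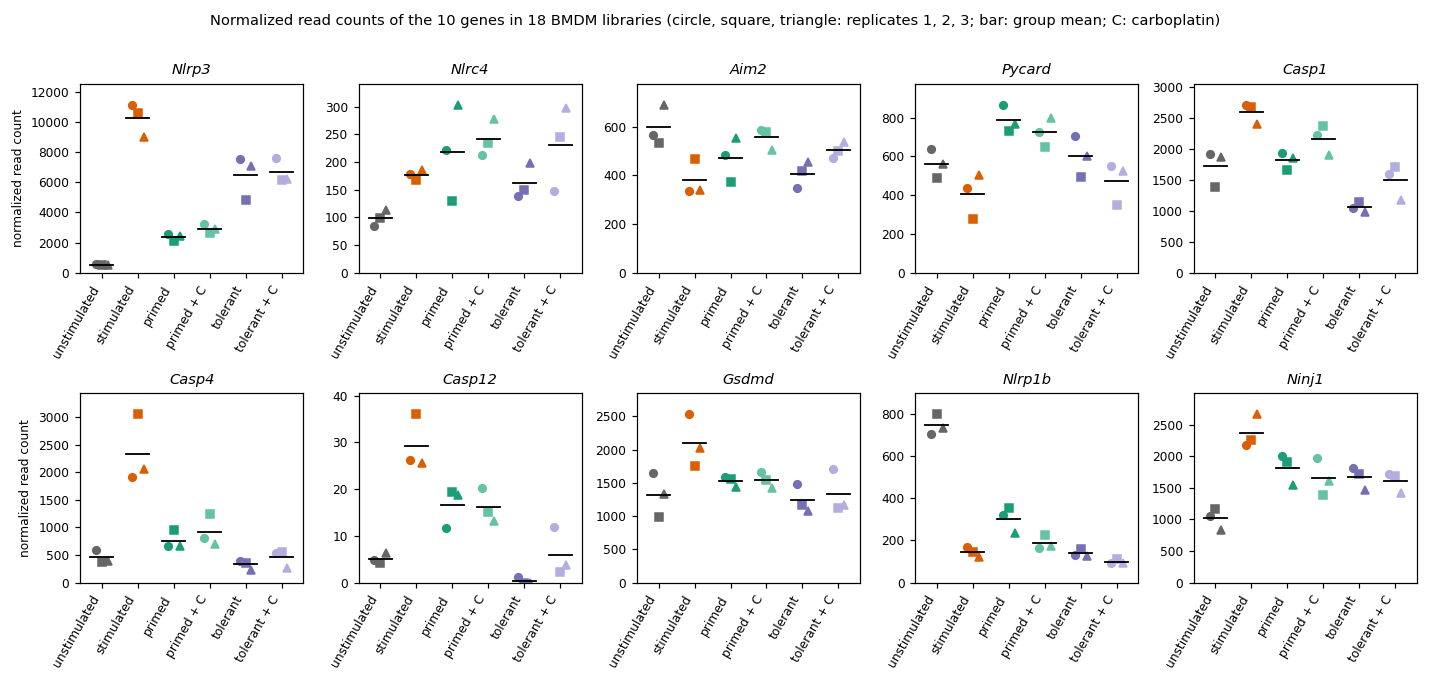
Normalized read counts (vertical axes, from 0) of the 10 genes in the 18 libraries, grouped along the horizontal axis, with circles, squares and triangles for replicates 1, 2 and 3, a bar for the group mean and C for carboplatin. Nlrp3 is lowest in the unstimulated libraries, Nlrp1b is highest there, and the 3 caspase genes have their highest mean in the LPS-stimulated group and their lowest in the LPS-tolerant group, where the Casp4 values overlap the unstimulated ones.

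Among the sensors, Nlrp3, whose protein responds to potassium efflux and membrane damage, had the widest rise. It is on chromosome 11 (ENSMUSG00000032691, chr11:59432394-59457782, plus strand). Its normalized read counts in replicates 1 to 3 were 596.5, 509 and 519 in unstimulated, 11170, 10590 and 9014 in LPS-stimulated, 2553, 2087 and 2454 in LPS-primed, and 7521, 4808 and 7111 in LPS-tolerant BMDMs. These 4 groups did not overlap, and they ran from unstimulated through primed and tolerant to stimulated. The rise was 18.9-fold in stimulated BMDMs (log2 fold change 4.24 ± 0.19, edgeR adjusted p = 3.31e-11) and 4.37-fold in primed BMDMs (2.13 ± 0.17, edgeR adjusted p = 1.03e-07). After the second dose Nlrp3 was higher again, by 1.45 ± 0.17 on the log2 scale against the primed group (edgeR adjusted p = 8.55e-05). It did not reach the level of the single dose, being lower than in the stimulated group (log2 fold change -0.66 ± 0.17, edgeR adjusted p = 0.00465), a call that was lost without the replicate 2 libraries (-0.45, edgeR adjusted p = 0.0949). Per kilobase of its canonical transcript Nlrp3 was also the most abundant of the 10 in the LPS-stimulated group, at a CPM per kilobase of 274 against 185 for Ninj1, the next, while in the unstimulated group Casp1 led at 121 and Nlrp3 stood at 14.5.

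Nlrp1b, a sensor that is activated when pathogen proteases or inhibition of dipeptidyl peptidases degrade its N-terminal part, ran the other way. Its normalized read counts were 705.5, 796.7 and 730.8 in unstimulated BMDMs (ENSMUSG00000070390, chr11:71043928-71121559, minus strand). They were 170.6, 146 and 120.3 in LPS-stimulated, 318.6, 352 and 234.4 in LPS-primed and 131.7, 157.2 and 124.6 in LPS-tolerant BMDMs. All unstimulated values lay above all values of the other groups, and the tolerant and stimulated groups overlapped. The log2 fold change was -2.36 ± 0.19 in stimulated BMDMs (edgeR adjusted p = 4.3e-08), -1.30 ± 0.19 in primed BMDMs (edgeR adjusted p = 5.06e-05) and -1.13 ± 0.19 from primed to tolerant BMDMs (edgeR adjusted p = 0.00171). Between tolerant and stimulated BMDMs it was -0.08, with a 95% interval of -0.45 to 0.30. Nlrp1b has a close paralog, Nlrp1a, so its counts are uncertain where reads could not be placed on one of the pair.

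Nlrc4, which acts downstream of the NAIP receptors for flagellin and type III secretion proteins, had 85.08, 98.35 and 113.6 normalized read counts in unstimulated BMDMs (ENSMUSG00000039193, chr17:74732433-74766165, minus strand). It stood at 179, 167.4 and 185.3 in LPS-stimulated, 222.3, 129.9 and 303.8 in LPS-primed and 138, 149.4 and 198.7 in LPS-tolerant BMDMs. Every LPS-exposed library was above every unstimulated one, and the primed group was the most scattered. Nlrc4 rose by 1.14 ± 0.28 on the log2 scale in primed BMDMs (edgeR adjusted p = 0.00593) and by 0.84 ± 0.28 in stimulated BMDMs (edgeR adjusted p = 0.0199). The latter call was lost without unstimulated replicate 1 or LPS-stimulated replicate 3 (edgeR adjusted p = 0.0622 and 0.0516, in a range of 0.00226 to 0.155 over all alternatives). An exon of Nlrc4 overlaps an exon of Slc30a6 on the other strand. As the strand setting of the counting is not given in the sources used here, the counts of Nlrc4 are uncertain for reads in that overlap. Exons of Pycard, Casp1 and Gsdmd overlap exons of uncounted genes on the other strand, and their counts carry the same uncertainty.

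Aim2, the cytosolic receptor for double-stranded DNA, differed least between groups, its highest group mean being 1.57 times its lowest. Its normalized read counts were 566.9, 532.7 and 690.8 in unstimulated, 334.1, 466.3 and 339.1 in LPS-stimulated, 481.6, 373.7 and 554.2 in LPS-primed and 346.9, 417.1 and 455 in LPS-tolerant BMDMs (ENSMUSG00000037860, chr1:173178445-173293930, plus strand). The stimulated values lay below all unstimulated ones, while the primed values overlapped both. Aim2 fell in stimulated BMDMs (log2 fold change -0.65 ± 0.18, edgeR adjusted p = 0.00543) and did not pass the test in primed BMDMs (-0.34 ± 0.17, edgeR adjusted p = 0.171) or between tolerant BMDMs and either other LPS group (edgeR adjusted p = 0.553 and 0.716).

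Pycard, the adaptor that links sensors to caspase-1, passed no test in the edgeR fit without the replicate block. Its normalized read counts were 636.6, 490.1 and 560.8 in unstimulated, 439.1, 278.1 and 503.8 in LPS-stimulated, 867.9, 731.4 and 765.2 in LPS-primed and 707.8, 494 and 603.3 in LPS-tolerant BMDMs (ENSMUSG00000030793, chr7:127588558-127593039, minus strand). The primed values lay above those of the other 3 groups, and replicate 2 was the lowest of each group. The log2 fold change was 0.49 ± 0.21 in primed and -0.47 ± 0.21 in stimulated BMDMs (edgeR adjusted p = 0.108 and 0.0768). With the replicate block these differences passed the test (edgeR adjusted p = 0.00668 and 0.00419), as did tolerant against stimulated (0.58 ± 0.13, edgeR adjusted p = 0.00175) and tolerant against primed BMDMs (-0.40 ± 0.13, edgeR adjusted p = 0.0436). Between tolerant and stimulated BMDMs the adjusted p was 0.0502 in edgeR without the block, 0.0445 in DESeq2 and 0.0389 in limma-voom.

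**Figure D2:**
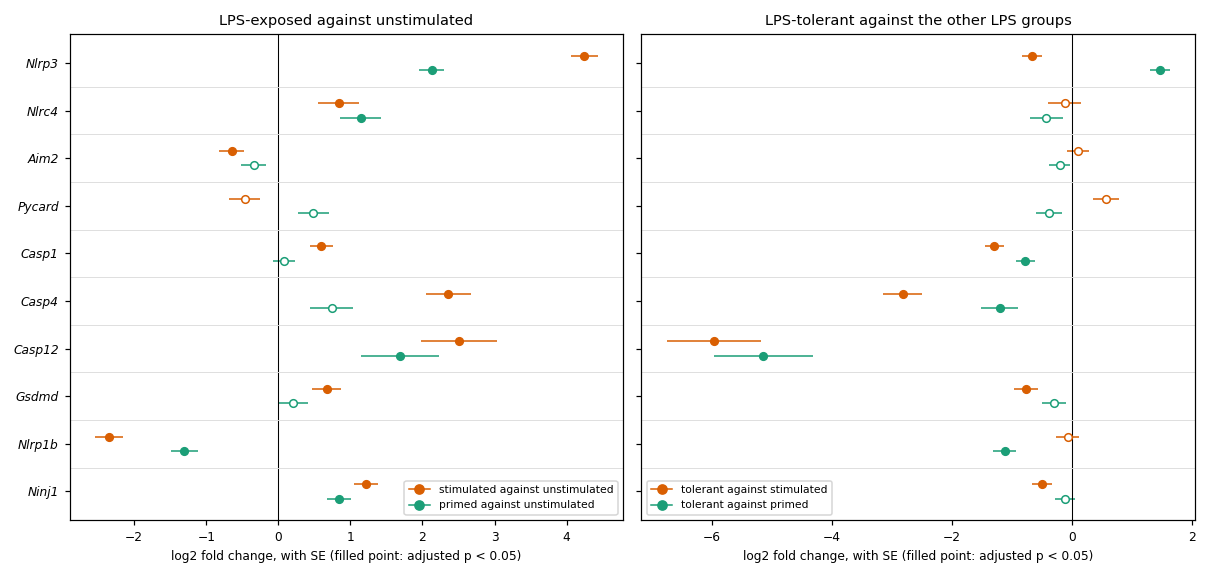
Log2 fold changes (horizontal axes) with their SE for the 10 genes, in LPS-stimulated and LPS-primed against unstimulated BMDMs (left) and in LPS-tolerant against LPS-stimulated and LPS-primed BMDMs (right), with filled points for an adjusted p below 0.05. Nlrp3 lies furthest to the right on the left side, at 4.24, and the caspase genes lie to the left of 0 in both comparisons of tolerant BMDMs.

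All 3 caspase genes fell after the second dose. Casp4, whose product caspase-11 binds cytosolic LPS and cleaves gasdermin D, had 592.7, 376.2 and 396.3 normalized read counts in unstimulated BMDMs. It had 1904, 3046 and 2051 in LPS-stimulated, 666.8, 950.2 and 664.9 in LPS-primed and 396.3, 358.4 and 233.7 in LPS-tolerant BMDMs. The stimulated libraries were above all others, the primed libraries were next, and the tolerant and unstimulated libraries overlapped. Casp4 rose 5.13-fold in stimulated BMDMs (log2 fold change 2.36 ± 0.31, edgeR adjusted p = 9.36e-06). In primed BMDMs its value was 0.74 ± 0.30 (edgeR adjusted p = 0.083, and 0.0119 with the replicate block). In tolerant BMDMs it was lower than in stimulated BMDMs by a log2 fold change of -2.83 ± 0.32 (edgeR adjusted p = 3.78e-06) and lower than in primed BMDMs by -1.21 ± 0.31 (edgeR adjusted p = 0.0255). The latter call was lost when LPS-primed replicate 2 or 3 or LPS-tolerant replicate 2 or 3 was left out, in 4 of 6 such fits, where the log2 fold changes were -1.02, -1.29, -1.27 and -1.01 and the adjusted p 0.104, 0.0515, 0.0595 and 0.12, within a range of 0.000852 to 0.17 over all alternatives.

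Casp1, the protease that matures interleukin-1β, moved within a narrower range. Its normalized read counts were 1910, 1375 and 1868 in unstimulated, 2711, 2677 and 2403 in LPS-stimulated, 1932, 1660 and 1849 in LPS-primed and 1037, 1143 and 986.2 in LPS-tolerant BMDMs. The tolerant values were below, and the stimulated values above, every value of the unstimulated and primed groups, which overlapped each other. Casp1 rose in stimulated BMDMs by 0.60 ± 0.16 on the log2 scale (edgeR adjusted p = 0.00457), and its value in primed BMDMs was 0.08 ± 0.16 (edgeR adjusted p = 0.771). In tolerant BMDMs it was 0.582 times the primed level (log2 fold change -0.78 ± 0.16, edgeR adjusted p = 0.00677) and 0.406 times the stimulated level (-1.30 ± 0.16, edgeR adjusted p = 9.3e-06). With library size alone as the scaling, the rise in stimulated BMDMs was 0.26 ± 0.15 (edgeR adjusted p = 0.16), and without the replicate 2 libraries it was 0.46 ± 0.18 (edgeR adjusted p = 0.0731).

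Casp12, an inflammatory caspase whose function is less settled, had at most 52 reads in any library. The reads in replicates 1 to 3 were 5, 5 and 7 in unstimulated, 22, 52 and 26 in LPS-stimulated and 11, 17 and 20 in LPS-primed BMDMs. In LPS-tolerant BMDMs they were 1, 0 and 0. The tolerant libraries were therefore below every library of the other 3 groups, and the 4 groups did not overlap. The 48 reads of the primed group against 1 read of the tolerant group give a ratio of 48.5, with an exact 95% interval of 8.3 to 1960, and the 100 reads of the stimulated group give a ratio of 88.5 (15.5 to 3530). These intervals cover counting error only. The fall passed the test against primed BMDMs (edgeR adjusted p = 0.0012) and against stimulated BMDMs (edgeR adjusted p = 1.91e-05), but the fitted log2 fold changes of -5.14 and -5.97 depend on the prior count, becoming -2.98 and -3.73 with a prior count of 2. Casp12 rose in stimulated BMDMs (log2 fold change 2.51 ± 0.53, edgeR adjusted p = 0.000843). The rise in primed BMDMs (1.69 ± 0.54, edgeR adjusted p = 0.0295) was lost in 5 of 6 fits that left out 1 library, all but LPS-primed replicate 1, with an adjusted p of up to 0.106 in these fits and of 0.0148 to 0.237 over all alternatives.

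Among the effectors, Gsdmd had 1649, 987.6 and 1337 normalized read counts in unstimulated, 2529, 1759 and 2029 in LPS-stimulated, 1593, 1553 and 1445 in LPS-primed and 1476, 1164 and 1070 in LPS-tolerant BMDMs (ENSMUSG00000022575, chr15:75733974-75739257, plus strand). The stimulated values lay above all others and the remaining groups overlapped. Gsdmd was higher in stimulated BMDMs than in unstimulated BMDMs (log2 fold change 0.67 ± 0.20, edgeR adjusted p = 0.01) and lower in tolerant than in stimulated BMDMs (-0.77 ± 0.20, edgeR adjusted p = 0.00637). The first of these calls was lost without unstimulated replicate 2 (0.52 ± 0.21, edgeR adjusted p = 0.0519, range over all alternatives 0.000163 to 0.141). Its value was 0.21 ± 0.20 in primed BMDMs and -0.31 ± 0.20 from primed to tolerant BMDMs (edgeR adjusted p = 0.502 and 0.411).

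Ninj1, whose protein forms the filaments that tear the plasma membrane late in pyroptosis, stayed high after priming. It had 1059, 1164 and 827.1 normalized read counts in unstimulated, 2180, 2253 and 2661 in LPS-stimulated, 1996, 1903 and 1548 in LPS-primed and 1814, 1719 and 1460 in LPS-tolerant BMDMs (ENSMUSG00000037966, chr13:49340945-49349743, plus strand). All LPS-exposed libraries were above the unstimulated ones, and the primed and tolerant groups overlapped. Ninj1 rose by 1.22 ± 0.17 on the log2 scale in stimulated BMDMs (edgeR adjusted p = 1.41e-05) and by 0.84 ± 0.17 in primed BMDMs (edgeR adjusted p = 0.00118). From primed to tolerant BMDMs the value was -0.13, with a 95% interval of -0.45 to 0.20. Tolerant BMDMs held less Ninj1 than stimulated BMDMs (-0.51 ± 0.17, edgeR adjusted p = 0.0245), which was lost without LPS-tolerant replicate 3 or LPS-stimulated replicate 3 (-0.42 and -0.41, edgeR adjusted p = 0.107 and 0.104, range over all alternatives 0.00487 to 0.107).

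The third comparison set the response to the low dose in primed BMDMs (tolerant against primed) against the response to the same dose in BMDMs that had not been primed (stimulated against unstimulated). The response in primed BMDMs also includes the change of medium. The difference of the responses passed the test for 8 of the 10 genes. It was negative for Nlrp3, Nlrc4, Casp1, Casp4, Casp12, Gsdmd and Ninj1, 7 genes beside 13.3% of all genes, and positive for Nlrp1b, 1 gene beside 10.5% of all genes. For Nlrp3 both responses were rises, 4.24 and then 1.45, and the difference was -2.79 ± 0.24 (edgeR adjusted p = 1.99e-07). For the caspase genes the responses had opposite signs, 2.36 and then -1.21 for Casp4 (difference -3.57 ± 0.44, edgeR adjusted p = 1.28e-05), 0.60 and then -0.78 for Casp1 (-1.38 ± 0.22, edgeR adjusted p = 0.000217), and 2.51 and then -5.14 for Casp12 (-7.65 ± 0.98, edgeR adjusted p = 2.03e-05, a size that depends on the prior count as above). The effectors rose after the first dose and did not pass the test after the second, with differences of -0.98 ± 0.28 for Gsdmd (edgeR adjusted p = 0.0179) and -1.34 ± 0.24 for Ninj1 (edgeR adjusted p = 0.000425). Nlrp1b fell in both cases, by 2.36 and then 1.13 on the log2 scale (log2 fold changes -2.36 and -1.13), and the difference was 1.23 ± 0.27 (edgeR adjusted p = 0.00256). For Nlrc4 the difference of -1.27 ± 0.40 (edgeR adjusted p = 0.0264) was lost in 5 of 12 fits that left out 1 library, with values of -0.96 to -1.24 and an adjusted p of 0.0543 to 0.0908. Those libraries were unstimulated replicate 1, LPS-primed replicate 3, LPS-tolerant replicates 1 and 2 and LPS-stimulated replicate 3. The differences for Aim2 (0.44, 95% interval -0.05 to 0.93) and Pycard (0.08, -0.51 to 0.67) did not pass the test.

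**Figure D3:**
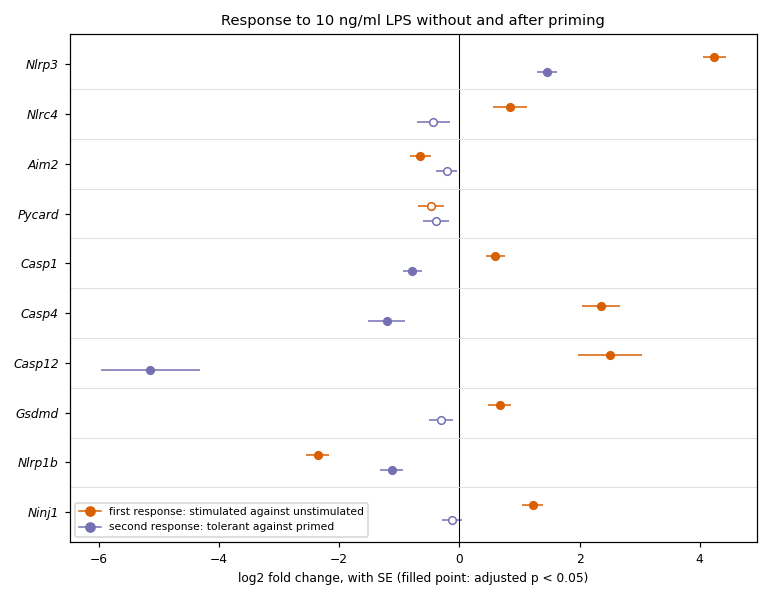
Log2 fold changes (horizontal axis) with their SE for the 10 genes after 10 ng/ml LPS for 3 h, in BMDMs without priming (stimulated against unstimulated) and after priming (tolerant against primed), with filled points for an adjusted p below 0.05. The points of Casp1, Casp4 and Casp12 lie on opposite sides of 0, both points of Nlrp3 lie to the right and both points of Nlrp1b to the left.

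The fourth question was whether carboplatin altered these transcripts. None of the 10 genes passed the test in either state by edgeR, DESeq2 or limma-voom. In primed BMDMs 0% of all genes were higher and 0.372% lower, with 0.265% past the study's limits for carboplatin (an absolute log2 fold change over 2 with an adjusted p below 0.25). In tolerant BMDMs 0.0177% were higher and 0.407% lower, with 0.389% past those limits. At an unadjusted p below 0.05 there was 1 of the 10 genes in primed BMDMs (Nlrp1b), beside 6.86% of all genes, and there were 3 in tolerant BMDMs (Casp1, Casp12 and Nlrp1b), beside 6.73%. The contrast of the carboplatin effect between tolerant and primed BMDMs called 0 of the 10 genes and 0% of all genes in each direction, and 1 of the 10, Casp12, had an unadjusted p below 0.05, as did 1.16% of all genes.

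Nlrp1b had 164.8, 223.7 and 173.1 normalized read counts in LPS-primed + carboplatin BMDMs, all below the 234.4 to 352 of the primed group. The log2 fold change was -0.68 ± 0.19 (edgeR adjusted p = 0.202). With the replicate block, where 1.53% of all genes were lower, it passed the test (-0.68 ± 0.14, edgeR adjusted p = 0.0204, within a range of 0.0204 to 1 over all alternatives). In LPS-tolerant + carboplatin BMDMs it had 90.47, 113.8 and 94.64, also below all values of the tolerant group (-0.47 ± 0.19, edgeR adjusted p = 0.64, and 0.168 with the block). Nlrp1b was thus lower with carboplatin in 3 of 3 same-numbered pairs in each state.

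Casp12 had 9, 2 and 4 reads in LPS-tolerant + carboplatin BMDMs against 1, 0 and 0 without the drug, a ratio of 16.0 between the summed reads (exact 95% interval 2.47 to 675, counting error only). It was the 1 gene of the 10 that passed the study's limits for carboplatin (log2 fold change 3.62 ± 0.94, edgeR adjusted p = 0.135, and 0.0906 with the replicate block). The study itself lists Casp12 among the genes higher with carboplatin in tolerant BMDMs at these limits. Here Casp12 passed those limits in 3 of the 6 fits that left out 1 library, and not without LPS-tolerant replicate 2 or 3 (edgeR adjusted p = 0.599 and 0.429) or without LPS-tolerant + carboplatin replicate 1 (0.61). It also missed them with limma-voom (adjusted p = 0.291), without the replicate 2 libraries (edgeR adjusted p = 1) and with a prior count of 2, where the log2 fold change was 1.71. In the fit of only the groups compared, Casp12 did not pass the filter and has no value. Over the other alternatives its adjusted p ranged from 0.0906 to 1. In primed BMDMs the reads with the drug were 15, 16 and 13, in the range of the untreated 11, 17 and 20. Casp1 had 1594, 1709 and 1179 normalized read counts in the tolerant group with carboplatin, all above the 986.2 to 1143 without it (log2 fold change 0.50 ± 0.16, edgeR adjusted p = 0.296, and 0.0892 with the block), and all below the 2403 to 2711 of LPS-stimulated BMDMs. For Nlrp3 in tolerant BMDMs the effect of carboplatin was 0.04, with a 95% interval of -0.28 to 0.36, and for Gsdmd and Ninj1 the intervals were -0.28 to 0.50 and -0.37 to 0.28. For Nlrp3 in primed BMDMs all 3 treated values, 3247, 2640 and 2871, were above the untreated ones (0.30 ± 0.16, edgeR adjusted p = 0.803). The median log2 fold change of the 10 genes under carboplatin was 0.08 in primed and 0.21 in tolerant BMDMs, with 0.01 over all genes in both.

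**Figure D4:**
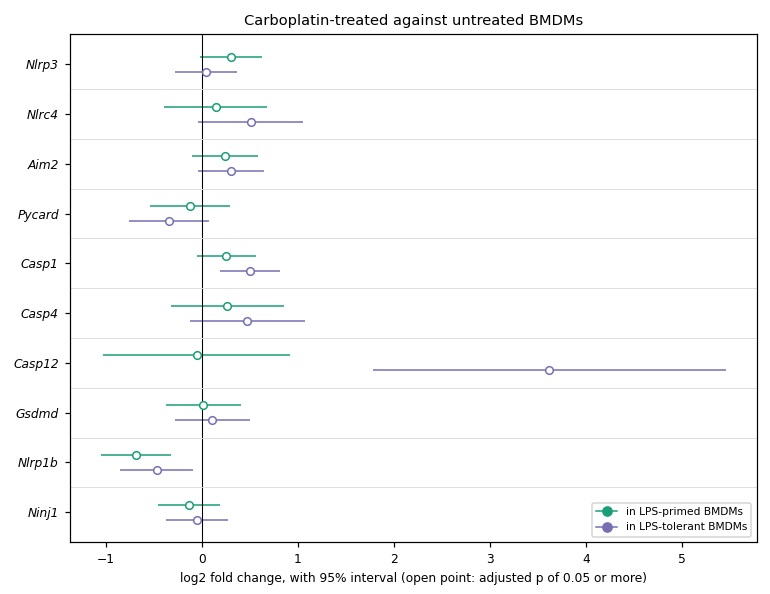
Log2 fold changes (horizontal axis) with 95% intervals for the 10 genes in carboplatin-treated against untreated BMDMs, in the LPS-primed and the LPS-tolerant state, with open points where the adjusted p was 0.05 or more. All points are open, and the interval of Casp12 in tolerant BMDMs, 1.78 to 5.45, is the widest.

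Around the 10 genes, 62 other genes of the pathway were examined, of which 58 were tested. They comprised further sensors, interleukin-1 family substrates and their inhibitors, licensing factors, interferon-related upstream factors, other cell death effectors, membrane repair proteins and the LPS receptor with its adaptors. In stimulated BMDMs 24 rose, which is 41.4% beside 24.3% of all genes, and 15 fell, which is 25.9% beside 26.9%. In primed BMDMs 16 rose, 27.6% beside 12.1%, and 2 fell, 3.45% beside 13.1%. From primed to tolerant BMDMs 0 rose and 2 fell, Irf1 and Irgm2 (named after their values were seen), beside 3.60% and 2.71% of all genes. With the replicate block 14 changed (9.67% of all genes higher and 8.32% lower). DESeq2 called 7, beside 635 genes higher and 492 lower of all 11084. With limma-voom 1 was called, beside 405 genes higher and 291 lower of all 11305. Against stimulated BMDMs, 21 were higher and 15 lower in tolerant BMDMs, 36.2% and 25.9% beside 16.2% and 18.3% of all genes. Under carboplatin 0 of the 58 passed edgeR's test in either state. At an unadjusted p below 0.05 there were 2 in primed and 1 in tolerant BMDMs, beside 6.86% and 6.73% of all genes. In tolerant BMDMs DESeq2 called 1, beside 17 genes higher and 135 lower of all 11304. The block called 2 there, beside 38 genes higher and 162 lower of all 11305. The response to the low dose was smaller or more negative after priming for 17 of them and larger or more positive for 9, 29.3% and 15.5% beside 13.3% and 10.5% of all genes.

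Of the 5 genes for interleukin-1 family substrates and their inhibitors, 3 rose in stimulated and 4 in primed BMDMs, beside 24.3% and 12.1% of all genes. Il18, the other caspase-1 substrate, had log2 fold changes of -0.39 and -0.03 (edgeR adjusted p = 0.304 and 0.965). Il1b, the precursor of interleukin-1β, had a log2 fold change of 10.18 ± 1.26 in stimulated BMDMs (edgeR adjusted p = 4.69e-06) and 8.24 ± 1.18 in primed BMDMs (edgeR adjusted p = 5.23e-05), with only 2439 normalized read counts in LPS-primed replicate 2 against 24420 and 19220 in replicates 1 and 3. Il1a changed by 11.02 ± 1.10 and 7.31 ± 1.00 (edgeR adjusted p = 4.13e-07 and 3.46e-05), and Il1rn, the receptor antagonist, by 7.32 ± 0.64 in stimulated BMDMs (edgeR adjusted p = 9.42e-08). Mefv, the gene of the sensor pyrin, changed by 4.57 ± 0.48 in primed BMDMs (edgeR adjusted p = 1.87e-06). Of the 12 interferon-related upstream factors, 8 rose in stimulated BMDMs, the receptor genes Ifnar1 and Ifnar2 among them, and 2 fell (24.3% and 26.9% of all genes). In tolerant BMDMs 7 were lower and 2 higher than in stimulated BMDMs (18.3% and 16.2% of all genes). The pair that ran the other way in both comparisons, named after their values were seen, was Irf8 (log2 fold changes -2.35 and 2.32, edgeR adjusted p = 3.88e-09 and 1.02e-08) and Irf2 (-0.92 and 1.08, edgeR adjusted p = 0.0023 and 0.00105). The genes that rose included the guanylate-binding protein genes, whose products expose LPS in the cytosol to caspase-11. Gbp5 rose by 6.25 ± 0.50 in stimulated BMDMs (edgeR adjusted p = 3.11e-08) and its log2 fold change from stimulated to tolerant BMDMs was -7.04 ± 0.52 (edgeR adjusted p = 3.29e-08), with -3.88 ± 0.42 for Gbp3 (edgeR adjusted p = 2.73e-06) and -4.67 ± 0.47 for the DNA-binding factor gene Ifi203 (edgeR adjusted p = 1.11e-06).

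Naip1, a receptor for the needle protein of type III secretion systems that signals through Nlrc4, was among the genes that differed from that pattern. It had 1, 0 and 0 reads in LPS-stimulated BMDMs and 1, 3 and 1 in unstimulated BMDMs, but 54, 66 and 109 in LPS-primed and 27, 65 and 72 in LPS-tolerant BMDMs. The ratio of the tolerant to the stimulated group was 185 (exact 95% interval 32.8 to 7360), and of the primed to the unstimulated group 53.4 (22.5 to 166). Both differences passed the test (edgeR adjusted p = 1.06e-06 and 1.16e-06). Of the 10 further sensors tested, 5 were higher in tolerant than in stimulated BMDMs, beside 16.2% of all genes. Besides Naip1 these were Naip2, Naip5, Naip6 and Nlrp1a, named after their values were seen. Another 3, Ifi203, Ifi204 and Ifi211, were lower, beside 18.3% of all genes. The Naip genes are close copies of each other, so their counts are uncertain where reads could not be placed.

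Over the 18 libraries, the pattern most like that of Casp1 was that of Casp4 (Pearson r of log2 CPM 0.878), followed by that of Casp12 (0.875), and for Casp12 it was Casp1 and then Pim1 (0.862). Casp4 was most like Trex1 (0.934), the gene of a cytosolic DNA exonuclease, and Ddx24 (0.930). Nlrp3 was most like Maff (0.978) and Gpr84 (0.970), Ninj1 like Mrpl52 (0.944) and the chemokine gene Cxcl16 (0.940), and Nlrp1b like Ift172 (0.954) and Parp1 (0.951). Gsdmd was most like Rnf31 (0.888) and Dus2 (0.862), Pycard like Slc25a11 (0.915) and Ccnd3 (0.891), Aim2 like Clk1 (0.855) and Stk38 (0.836), and Nlrc4 like Nfe2l2 (0.856) and Ginm1 (0.851). These values describe 6 groups of 3 libraries that share their treatment, and they were not tested.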

How the data were processed

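The authors aligned TruSeq stranded mRNA reads (2 × 150 bp) to GRCm39 with HISAT2 and deposited raw counts of read pairs per gene symbol from HTSeq-count, 1 file per library. Tool versions, annotation and strand setting are not given in the sources used here. Rows that name no gene were left out of library sizes, and 26.5 to 33.1% of pairs lay outside genes. Counts were fitted with edgeR 4.0.16 in R 4.3.3 (TMM, filterByExpr, prior count 0.125, 6 group means over 18 libraries, quasi-likelihood F test, Benjamini-Hochberg over 11305 genes). SE is the absolute log2 fold change divided by the square root of F, and 95% intervals are 1.96 SE to each side. These intervals are approximate and narrower than the F test implies. For Aim2 in primed against unstimulated BMDMs the interval was -0.687 to -0.001 with an unadjusted edgeR p of 0.066. The fit was also run on simulated data, and the outcome is not given here or used as support.

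The study describes its replicates as biological, but the sources do not tie libraries to mice or cultures, so p-values measure the spread between these libraries. Replicate numbers (R1 to R3) come from the labels. Same-numbered libraries deviated together in all 18 pairs (lowest correlation 0.183). For LPS-stimulated replicate 2, however, the correlation with an unstimulated library of another number was higher (0.261 against 0.237). A fit with the number as a block is given where it changes a call. Alternatives were DESeq2 (1.42.0) as a test and its size factors, library size alone, limma-voom (3.58.1), no filter, prior count 2, only the groups compared, the study's limits and each library left out. A fit without replicate 2 was added after the data were seen. Genes and lists were chosen with earlier results of these data known. All 10 genes are named, and of the other pathway genes at most the 4 largest past the study's limits in a comparison. Likeness names the 2 genes with the highest Pearson r. Casp12 and Naip1 ratios use summed reads over effective library sizes. Coordinates are GENCODE vM39 on GRCm39.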

Additional observations from a re-analysis of the deposited data

Results flagged for a closer look

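The response to 10 ng/ml LPS differed between primed and unprimed BMDMs for 8 of the 10 genes, by the contrast of 4 groups in edgeR. In primed BMDMs this response also includes the change of medium. The differences (second response minus first, log2 scale) were -2.79 for Nlrp3, -1.27 for Nlrc4, -1.38 for Casp1, -3.57 for Casp4, -7.65 for Casp12, -0.98 for Gsdmd, 1.23 for Nlrp1b and -1.34 for Ninj1. The value of Casp12 rests on 1 read in the tolerant group. Without the replicate 2 libraries the differences of Gsdmd and Nlrc4 no longer passed the test (edgeR adjusted p = 0.134 and 0.0752).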

How the results depend on the processing

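Of 33 calls of a gene in a comparison, 28 held under every planned change of normalization, filter, test, prior count, block or groups fitted, and 22 also held when any single library or the replicate 2 libraries were left out. None of the 80 values turned its direction while called. The study's limits reduced the members called to 1 in primed against unstimulated, 4 in stimulated against unstimulated, 1 in tolerant against primed and 2 in tolerant against stimulated BMDMs, and gave 1 in tolerant BMDMs with carboplatin, by construction of the limit. The replicate block gave 1 gene for carboplatin in primed BMDMs and, beside the differences given in the report, changed no other call. Without the replicate 2 libraries, and so with fewer libraries in the fit, 4, 6, 2 and 4 genes were called in these LPS comparisons and 6 for the difference of the responses. Leaving out 1 library gave 4 to 5, 8 to 9, 4 to 5 and 5 to 7 genes in the LPS comparisons in the order above, 7 to 8 for the difference of the responses and 0 for carboplatin in each fit. The shares of all genes called in the fits with libraries left out are not given here. A change in these counts therefore cannot be told apart from a change over all genes. Library size alone moved the median log2 fold change of all genes by -0.24 in primed and -0.34 in stimulated against unstimulated and by 0.24 in the difference of the responses. With it Casp1, Gsdmd and Nlrc4 were not called in stimulated BMDMs (edgeR adjusted p = 0.16, 0.141 and 0.155), nor Gsdmd and Nlrc4 in the difference (0.0501 and 0.0741), while Aim2 was called lower in primed (0.0208) and Pycard in stimulated BMDMs (0.00408). Depth limits Casp12 most, which had at most 1 read in each tolerant library.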
